A study of Mus musculus with 24 samples.

Results

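The transcripts followed here are 10 genes of inflammatory signalling, namely the cytokines Il1a, Il1b, Tnf and Il18, the NF-kB subunits Nfkb1, Nfkb2 and Relb, and the NF-kB inhibitors and regulators Nfkbia, Nfkbiz and Tnfaip3. They were taken by symbol from a list that was fixed with earlier results of these data known. All 10 stand among the 20636 genes of both transcript tables. Their levels are given as TPM, the share of transcripts scaled to a fixed total, a unit that already divides by transcript length, so levels of different genes can be set side by side. All 10 had a mean of at least 1 TPM at both ages and were therefore among the genes tested.

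NF-kB is a family of dimeric transcription factors that waits in the cytoplasm, held by inhibitor proteins, until a receptor for a microbial product or a cytokine switches on the kinases that destroy the inhibitor. The freed dimer enters the nucleus and binds kappaB sites, and among its best known targets are the cytokine genes Il1b and Tnf and, in a negative feedback loop, the inhibitors Nfkbia and Tnfaip3. Microglia, the resident macrophages of the brain, are a main source of interleukin-1 and tumour necrosis factor in nervous tissue, and several of these transcripts are also induced within the time that a brain takes to be dissociated.

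Microglia were profiled by bulk RNA sequencing from mice labelled C57BL/6J that were wild type (WT), heterozygous (HET) or homozygous (HOM) for a knock-out of 3110043O21Rik, as C9orf72 is called in the mouse. At each of 2 ages, 3 and 17 months, every genotype was represented by 4 animals, which made 6 groups and 24 libraries. The knock-out is labelled as C9KO and is not tied to a cell type by any driver in the labels, and the labels do not say which part of the gene it lacks. Every group shares the same preparation, in which brain without meninges was dissociated with papain and cells bearing CD11b were held on magnetic beads. Single animals are named below by genotype and animal number. The labels do not say whether animals of a group shared a litter or a preparation day, so the p-values measure only the spread between these animals.

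The libraries held between 16.7 and 46.4 M alignments. The targeted transcript stood at 42.6% of the WT mean in HET and 0.61% in HOM at 3 months, and at 48.5% and 0.243% at 17 months (exact two-sided permutation test, p = 0.0286 each, the smallest that 4 against 4 animals can give). Of the microglial markers, Csf1r, the receptor that microglia need to survive, was between 5510 and 6830 TPM at 3 months and between 2450 and 4380 TPM at 17 months, and P2ry12, a purine receptor of resting microglia, was between 1960 and 3180 TPM and between 798 and 2220 TPM. Sex, read from 4 Y-linked transcripts, was unbalanced, with 1 male WT, 4 male HET and 2 male HOM at 3 months, and 1, 0 and 3 at 17 months. At 3 months HET-8304 and HOM-8285 stood low in several of the 10 transcripts, and values without them are given where a result rests on them. At 17 months HET-7795 stood high in 5 of them.

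Several of these genes are known NF-kB targets, so their promoters are shown before the values. RefSeq windows on GRCm38.p6, from 250 bases before to 50 bases after the start, were at hand for 7 of the 10 genes, in 10 windows. A match to the kappaB consensus on either strand stood in windows of 3 genes, Nfkbia, Tnfaip3 and Nfkb2, whereas 8.46% of all 32851 windows and 9.55% of the 27025 genes in the same table held one. The windows below are shown because the first 3 hold a match, in capitals, and the last, of Il1b, holds none and its transcript had the largest difference of the 10 between HOM and WT at 17 months. All are written along the strand of the gene. The Nfkbia window is chr12:55492598-55492897 (minus strand), that of Tnfaip3 is chr10:19015361-19015660 (minus strand), that of Nfkb2 is chr19:46304487-46304786 (plus strand), and that of Il1b is chr2:129371090-129371389 (minus strand).
Nfkbia: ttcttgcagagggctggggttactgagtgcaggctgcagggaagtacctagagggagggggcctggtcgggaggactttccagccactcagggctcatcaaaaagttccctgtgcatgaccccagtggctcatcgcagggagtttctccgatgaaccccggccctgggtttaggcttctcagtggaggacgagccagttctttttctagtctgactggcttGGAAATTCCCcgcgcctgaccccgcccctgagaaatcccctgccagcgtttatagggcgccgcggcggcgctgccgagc
Tnfaip3: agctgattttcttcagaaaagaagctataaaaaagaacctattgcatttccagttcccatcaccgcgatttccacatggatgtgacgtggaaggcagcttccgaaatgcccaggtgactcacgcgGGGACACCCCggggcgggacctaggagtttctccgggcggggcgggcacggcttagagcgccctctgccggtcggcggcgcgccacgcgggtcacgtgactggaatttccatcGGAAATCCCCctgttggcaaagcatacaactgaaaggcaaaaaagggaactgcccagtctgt
Nfkb2: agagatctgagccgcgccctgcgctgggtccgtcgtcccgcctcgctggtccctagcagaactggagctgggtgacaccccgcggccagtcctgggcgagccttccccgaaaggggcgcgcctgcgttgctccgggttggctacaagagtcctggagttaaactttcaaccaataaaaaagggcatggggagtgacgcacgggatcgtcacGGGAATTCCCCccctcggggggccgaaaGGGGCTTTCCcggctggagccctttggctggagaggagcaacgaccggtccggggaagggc
Il1b: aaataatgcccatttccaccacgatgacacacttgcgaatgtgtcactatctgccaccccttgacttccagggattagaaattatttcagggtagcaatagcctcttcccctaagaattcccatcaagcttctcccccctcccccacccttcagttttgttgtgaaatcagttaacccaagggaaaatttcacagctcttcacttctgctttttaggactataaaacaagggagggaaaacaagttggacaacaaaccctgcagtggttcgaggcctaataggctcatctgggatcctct

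The single match of Nfkbia lay from 29 to 20 bases before the start. In Tnfaip3 the farther match, from 125 to 116 bases before the start, reads as a match on both strands, and the nearer one lay from 12 to 3 bases before it. In the Nfkb2 window shown a pair of overlapping matches spanned from 39 to 29 bases before the start, and the third lay from 11 to 2 bases before it. The table holds other Nfkb2 windows with matches too, not shown, and in all 5 of the 10 windows held one. A match is a string of letters and not a measured binding site, and the absence of one says only that the letters are not in that window.

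No member of the set passed the test in any genotype comparison. With limma on log2(TPM + 1) and Benjamini-Hochberg adjustment over all genes tested, 0 of the 10 were called at 3 months in HOM against WT (0.0604% of the 11587 genes tested were called), in HET against WT (0.0432%) and in HOM against HET (0.0259%). At 17 months 0 of the 10 were called in HOM against WT (0.712% of 11792 genes), in HET against WT (0.237%) and in HOM against HET (1.86%). Members with an unadjusted p under 0.05 are listed for each age beside the share of all genes. The test of a difference between the ages, given below, called 0 of the 10. At 3 months the members under that limit against WT were NF-kB subunits, all lower: Nfkb1 in HOM (1 of 10, where 17.1% of all genes were lower at that limit) and Nfkb1, Nfkb2 and Relb in HET (3 of 10, against 19.2% of all genes). Neither of these counts stood far from the share of all genes. Between HOM and HET, Nfkb2 and Relb were higher in HOM (2 of 10, against 3.3% of all genes higher). At 17 months the members under the limit were cytokines and inhibitors, all higher: Il1b, Nfkbia, Nfkbiz and Tnfaip3 in HOM against WT (4 of 10, where 13% of all genes were higher at that limit) and the same 4 with Tnf in HET against WT (5 of 10, against 2.75% of all genes higher). Between HOM and HET at 17 months 0 of the 10 were under that limit (13% of all genes in either direction). The HET and HOM comparisons at one age share their WT animals.

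**Figure D1:**
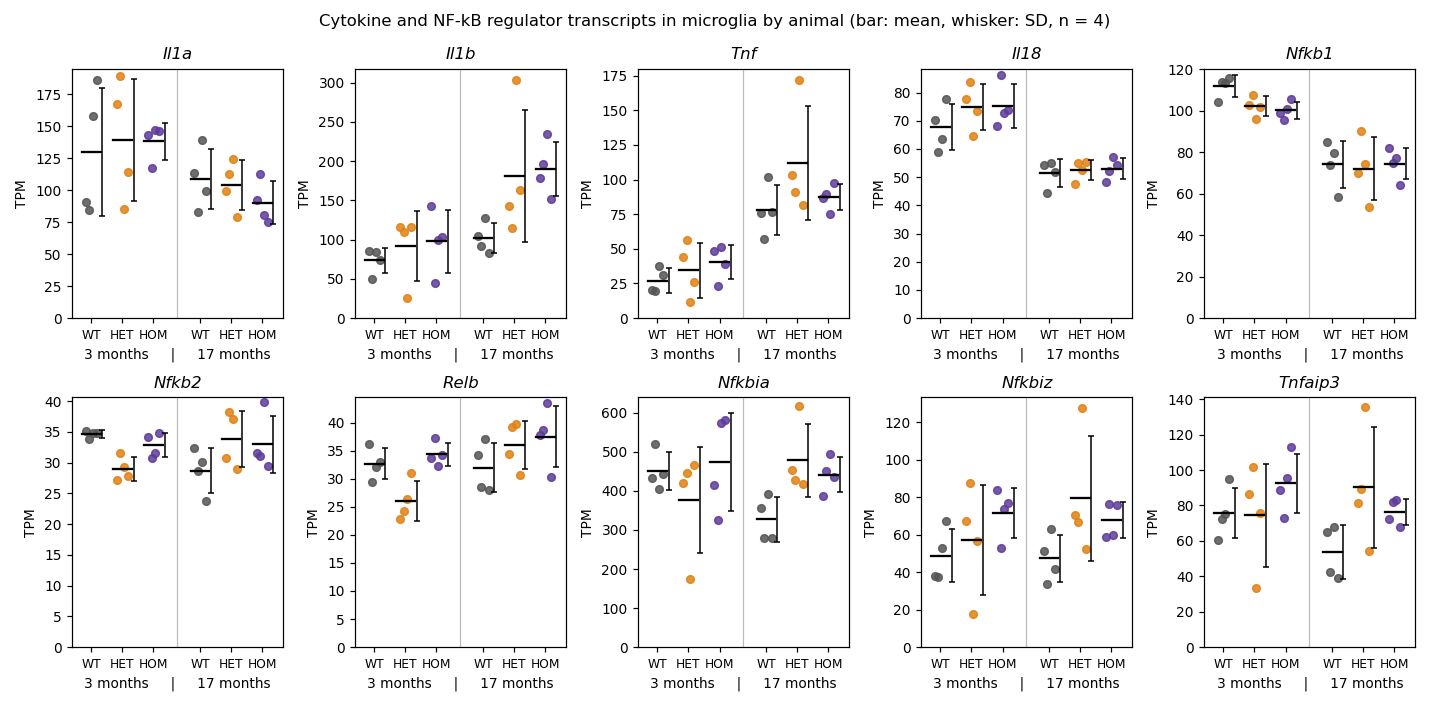
TPM of each of the 10 transcripts in every animal, by genotype (WT, HET, HOM) at 3 months (left of the grey line) and 17 months (right of it), with the mean as a bar and the SD as a whisker (n = 4). At 17 months the HET and HOM points of Nfkbia lie mostly above the WT points, which reach 392 TPM, and at 3 months HET-8304 is the lowest point of Il1b at 25.2 TPM. The ages come from separate tables.

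Il1b (chromosome 2, 129364570 to 129371139, minus strand, GRCm38) encodes the precursor of interleukin-1 beta, which the inflammasome must cleave before release. At 17 months the WT animals had 82.7, 91.9, 105 and 127 TPM, the HET animals 115, 143, 163 and 304, and the HOM animals 152, 178, 196 and 235. Every HOM animal was above every WT animal, which held for 9.5% of all genes in that direction. The HET animals overlapped the WT range by 1 animal. The means were 102 ± 19.4 TPM in WT, 181 ± 84.0 in HET and 190 ± 34.6 in HOM (SD, n = 4). On the log2 scale HOM was above WT by 0.90 (SE 0.246, limma adjusted p = 0.0911) and HET was above WT by 0.75 (SE 0.246, adjusted p = 0.308). Only without HET-7795 was the HOM difference called among the fits that left out 1 animal (adjusted p = 0.049), and with a term for sex it was 0.68 (adjusted p = 0.266). The share of all genes called without HET-7795 is not given here. In the same animals the monocyte markers (13 of 14 in the table, with Ly6c2 and Ccr2 above 0 throughout) summed to between 191 and 292 TPM in WT, 236 and 511 in HET and 467 and 1550 in HOM. One of them, Nr4a1, is also an immediate early gene, and without it the sums were 125 to 232, 159 to 415 and 293 to 1190 TPM. Their part in the Il1b difference was not tested. In bulk RNA more cells of a type and more RNA per cell cannot be told apart.

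At 3 months Il1b gave 50.4, 73.9, 84.3 and 85.7 TPM in WT, 25.2, 109.6, 115.5 and 116.2 in HET, and 44.7, 99.4, 104 and 143 in HOM. HET-8304 and HOM-8285 lay below all WT animals, and the other HET animals and 3 of the 4 HOM animals lay above them. With all animals HOM exceeded WT by 0.32 (SE 0.463, adjusted p = 0.731) and HET by 0.12 (adjusted p = 0.917). Without these 2 animals the differences were 0.65 for HOM (adjusted p = 0.124) and 0.65 for HET (adjusted p = 0.113), and neither was called. The 2 were chosen after their low values were seen, and no WT animal was left out. Both differences therefore had to rise, and these values carry no support for a difference.

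Tnf (chromosome 17, 35199381 to 35202007, minus strand) encodes tumour necrosis factor, which is made as a membrane protein and shed. At 17 months its levels were 57.4, 75.8, 76.8 and 102 TPM in WT, 81.5, 90.7, 103 and 172 in HET, and 75.1, 86.7, 89.2 and 97.9 in HOM. All 3 ranges overlapped, and HET-7795 was the one animal far above the rest. HET exceeded WT by 0.48 (SE 0.213, adjusted p = 0.499), which came to 0.26 without HET-7795, and HOM exceeded WT by 0.18 (adjusted p = 0.712). At 3 months Tnf was lower in every group, at 27.1 ± 9.05 TPM in WT, 34.4 ± 19.8 in HET and 40.5 ± 12.5 in HOM, with HET-8304 lowest of all 12 animals at 11.4 TPM. The HOM difference was 0.56 (SE 0.416, adjusted p = 0.474).

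The other 2 cytokines were called in no comparison either. Il1a (chromosome 2, 129299610 to 129309972, minus strand), whose product acts on the same receptor as interleukin-1 beta but needs no cleavage to be active, had a HOM difference opposite in sign to that of Il1b at 17 months. Its means were 109 ± 23.7 TPM in WT, 104 ± 19.5 in HET and 90.3 ± 16.6 in HOM (HOM against WT -0.26, SE 0.177, adjusted p = 0.482). At 3 months it stood at 130 ± 50.2, 139 ± 47.7 and 138 ± 14.3 TPM. Il18 (chromosome 9, 50554827 to 50581840, plus strand), another inflammasome substrate, was the steadiest of the cytokines, with means of 51.4, 52.7 and 53.0 TPM in WT, HET and HOM at 17 months and an SD of at most 4.96. At 3 months Il18 gave 67.7 ± 8.18, 74.9 ± 8.04 and 75.3 ± 7.83 TPM, and HOM exceeded WT by 0.15 (SE 0.103, adjusted p = 0.420). The sign of the HOM difference in Il18 at 17 months (0.046) turned when libraries were quantile normalized or centred on their medians.

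**Figure D2:**
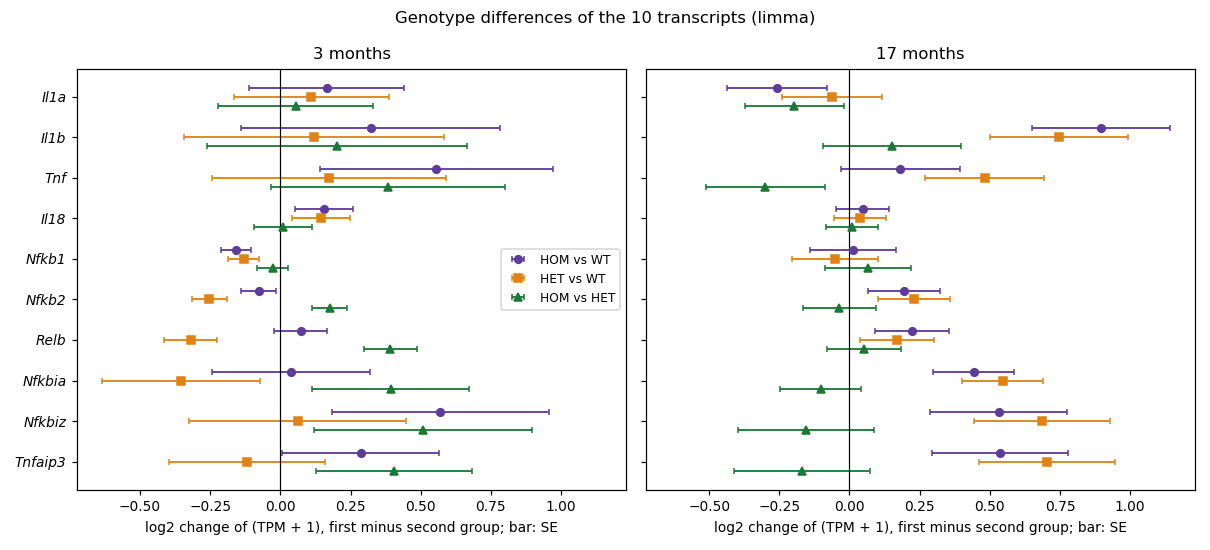
Log2 difference of (TPM + 1) for each transcript in the 3 genotype comparisons at 3 months (left) and 17 months (right), with the limma SE as a bar. At 17 months Il1b, Nfkbia, Nfkbiz and Tnfaip3 lie to the right of 0 for both HET and HOM against WT (from 0.44 to 0.90), and at 3 months the narrow bars belong to Nfkb1, Nfkb2 and Relb.

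At 3 months the subunits gave the smallest errors of the 10 transcripts. Nfkb2 (chromosome 19, 46304320 to 46312385, plus strand), the precursor of the subunit of the alternative NF-kB pathway, stood at 33.8, 34.9, 34.9 and 35.1 TPM in the WT animals at 3 months, against 27.2, 27.9, 29.3 and 31.5 in HET and 30.8, 31.6, 34.1 and 34.8 in HOM. All HET animals lay below all WT animals, which held for 9.99% of all genes. HET was below WT by a log2 difference of -0.25 (SE 0.0628, adjusted p = 0.0732), and HOM lay between (-0.078, adjusted p = 0.508). Relb (chromosome 7, 19606217 to 19629438, minus strand), the partner of Nfkb2 in that pathway, had 29.5, 32.1, 33.1 and 36.2 TPM in WT, 22.8, 24.3, 26.3 and 31.0 in HET, and 32.3, 33.8, 34.2 and 37.3 in HOM. Every HOM animal was above every HET animal (1.5% of all genes did so), and 1 HET animal reached into the WT range. The difference was -0.32 for HET against WT (SE 0.0935, adjusted p = 0.0925) and 0.39 for HOM against HET (SE 0.0935, adjusted p = 0.323). Without HET-8309, the highest HET animal, Relb was called in both, at adjusted p = 0.0304 and 0.0286. Leaving out that animal also raised the count of all genes called in HET against WT, as given below. For HOM against HET that count is not given here. The calls are therefore not a result about Relb alone.

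These values stand against a shift of the whole table. The median gene lay at -0.0889 in HET against WT and at -0.0989 in HOM against WT at 3 months, and centring each library on its median took these to 0.0215 and 0.0137. After centring, Nfkb2 was at -0.14 (adjusted p = 0.369) and Relb at -0.21 (adjusted p = 0.393) in HET against WT, and the Nfkb2 difference of HOM from WT turned to 0.035. In HOM against HET, where the median gene lay at 0.0013, Relb was at 0.39 before and after centring (adjusted p = 0.411 after it). Sex went with genotype here, since all 4 HET animals were male. With a term for sex Nfkb2 was at -0.24 and Relb at -0.37 in HET against WT (adjusted p = 0.397 each).

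Nfkb1 (chromosome 3, 135584655 to 135691547, minus strand), the precursor of the subunit that pairs with Rela in the classical pathway, had 104, 113, 114 and 116 TPM in WT at 3 months, 96.1, 102, 103 and 108 in HET, and 95.4, 98.9, 101 and 105 in HOM. Its difference from WT was -0.16 in HOM (SE 0.0545, adjusted p = 0.168) and -0.13 in HET (adjusted p = 0.192), which centring on the median took to -0.045 and -0.020. At 17 months the subunit levels in TPM overlapped between all genotypes. Nfkb1 ranged from 58.5 to 84.9 TPM in WT, from 53.4 to 90.2 in HET and from 64.0 to 82.0 in HOM. Nfkb2 was at 28.7 ± 3.68, 33.8 ± 4.59 and 33.0 ± 4.63 TPM, and Relb at 32.0 ± 4.43, 36.1 ± 4.28 and 37.5 ± 5.46 TPM. None of their 17-month differences from WT had an unadjusted p under 0.05, with Nfkb2 in HET the nearest (0.23, unadjusted p = 0.0996, limma adjusted p = 0.690).

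Among the inhibitors Nfkbia (chromosome 12, 55489410 to 55492647, minus strand), which encodes I-kappa-B alpha, the protein that holds NF-kB in the cytoplasm, had the highest mean of the 10 transcripts in each of the 6 groups. At 17 months it gave 279, 280.2, 357 and 392 TPM in WT, 418, 428, 453 and 617 in HET, and 387, 436, 452 and 494 in HOM. Every HET animal was above every WT animal, which held for 1.29% of all genes, while 1 HOM animal fell within the WT range. HET exceeded WT by 0.55 (SE 0.144, adjusted p = 0.167) and HOM by 0.44 (SE 0.144, adjusted p = 0.128). The HET difference was called when WT-7785, the highest WT animal, was left out (0.64, adjusted p = 0.047), and was 0.42 without HET-7795 (adjusted p = 0.423). Leaving out WT-7785 also raised the count of all genes called in HET against WT, as given below, so the call is not particular to Nfkbia. At 3 months the WT animals had 406, 434, 444 and 521 TPM, the HET animals 174, 419.6, 446 and 465 and the HOM animals 325, 416, 573 and 583. The HET difference of -0.35 (SE 0.281, adjusted p = 0.499) came to -0.019 without HET-8304 and HOM-8285.

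Nfkbiz and Tnfaip3 lay above WT in both mutant groups at 17 months, as Nfkbia did. Nfkbiz (chromosome 16, 55811375 to 55838899, minus strand) encodes a nuclear I-kappa-B protein that NF-kB induces and that promotes a later wave of its targets. It stood at 33.6, 41.7, 51.5 and 62.9 TPM in WT, at 52.4, 66.6, 70.5 and 128 in HET and at 58.6, 60.04, 76.0 and 76.3 in HOM (HET 0.69, SE 0.243, adjusted p = 0.343; HOM 0.53, adjusted p = 0.263). Tnfaip3 (chromosome 10, 19000910 to 19015657, minus strand) encodes a ubiquitin-editing enzyme that shuts the pathway off upstream of the kinases. It stood at 38.9, 42.6, 65.2 and 68.1 TPM in WT, 54.0, 81.2, 89.4 and 136 in HET and 67.6, 72.6, 81.8 and 82.9 in HOM (HET 0.70, SE 0.243, adjusted p = 0.334; HOM 0.53, adjusted p = 0.260). In both, the WT range overlapped each mutant range, and HET-7795 was the highest of the 12 animals. Without HET-7795 the HET differences were 0.43 and 0.48. With a term for sex the HOM differences were 0.44 and 0.35, and the HET differences 0.73 and 0.80. At 3 months Nfkbiz had means of 48.7 ± 14.2, 57.2 ± 29.4 and 71.7 ± 13.3 TPM and Tnfaip3 75.7 ± 14.3, 74.3 ± 29.3 and 92.5 ± 16.7 TPM in WT, HET and HOM. HET-8304 was again the lowest animal, at 17.6 and 33.4 TPM.

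Whether the genotype effect differed between the ages was tested over all 24 animals and 11436 genes. In this test 0 of the 10 were called for HOM against WT (0.254% of genes called), for HET against WT (0.691%) and for HOM against HET (2.03%). For HET against WT 4 of the 10 had an unadjusted p under 0.05 (14.4% of all genes did), all with the effect more positive at 17 months: Nfkb2 by 0.48 (SE 0.145, limma adjusted p = 0.121), Relb by 0.49 (adjusted p = 0.172), Nfkbia by 0.90 (adjusted p = 0.202) and Tnfaip3 by 0.82 (adjusted p = 0.341). Without HET-8304 and HOM-8285 the last 2 came to 0.57 for Nfkbia (limma adjusted p = 0.280) and 0.48 for Tnfaip3 (adjusted p = 0.581, unadjusted p = 0.143). For HOM against WT and HOM against HET 0 of the 10 were under that limit (21.8% and 11.2% of genes). Nfkb2 was called for HET against WT without HET-7796 (adjusted p = 0.0424), and Relb with a term for sex (adjusted p = 0.0455). The share of all genes called in these fits is not given here. All 4 HET animals were male at 3 months and 0 at 17 months, so age and sex cannot be told apart within HET. The median gene in HET against WT also lay at -0.0889 at 3 months and at -0.0121 at 17 months.

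Set side by side without a test, since age and table cannot be told apart, the ages differed more than the genotypes for some transcripts. Tnf was 2.87 times as high at 17 months as at 3 months in WT, 3.25 times in HET and 2.15 times in HOM, with ranges apart in each genotype. Such a gap upward was seen in 6.87% of genes in WT, 4.23% in HET and 12.4% in HOM. Il18 and Nfkb1 went the other way with ranges apart in all 3 genotypes (Il18 at 0.76, 0.703 and 0.704 of the younger mean, Nfkb1 at 0.663, 0.706 and 0.743). A gap downward was found in 52.2%, 27.4% and 44% of genes. Nfkbia was lower at 17 months with ranges apart in WT only (0.725), and its ratio was 1.27 in HET and 0.932 in HOM.

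The 10 transcripts also differed in how much animals of one genotype varied. At 3 months the within-genotype SD of log2(TPM + 1) was 0.765 for Il1b, 0.687 for Tnf and 0.640 for Nfkbiz, which placed them at the percentiles 98.7, 98 and 97.3 among the genes tested, whose median was 0.155. Il1a, Nfkbia and Tnfaip3 lay between the percentiles 93.4 and 93.7. Without HET-8304 and HOM-8285 the SDs were 0.277 for Il1b, 0.438 for Tnf and 0.317 for Nfkbiz (percentiles 88.1, 96 and 91.3), 0.421 for Il1a (95.5), 0.227 for Tnfaip3 (81.3) and 0.181 for Nfkbia (70.4). Nfkb1 and Nfkb2 were at the other end (0.0650 and 0.0726, percentiles 4.05 and 6.49). At 17 months Il1b, Nfkbiz, Tnfaip3 and Tnf were still between the percentiles 85.6 and 89.9, and Il18 was the steadiest (percentile 8.36).

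Pairs of the 10 transcripts were compared across the 12 animals of an age. Of 45 pairs, 10 at 3 months and 14 at 17 months had an adjusted permutation p under 0.05 for Pearson's r, all positive (100000 permutations, Benjamini-Hochberg over 90 pairs), and 4 and 8 for Spearman's rho. Tnf and Nfkbiz gave r = 0.93 at both ages (permutation p = 1e-05 at 3 months, the smallest these permutations can give, and 1.1e-04 at 17 months, adjusted 9e-04 and 0.00198; rho 0.92 and 0.82, p = 6e-05 and 0.00207). Without the 2 animals farthest from the median of Tnf, r was 0.87 and 0.71. Nfkbiz and Tnfaip3 gave r = 0.95 and 0.91 (permutation p = 3e-05 and 1.6e-04, adjusted 0.00135 and 0.00231; rho 0.94 and 0.78, p = 3e-05 and 0.00434; r 0.91 and 0.80 without the farthest 2). Il1b and Nfkbia gave r = 0.90 at 17 months (permutation p = 5e-05, adjusted 0.0015; rho 0.80, p = 0.00289; r 0.78 without the farthest 2, and 0.84 after genotype means were taken out). The subunits of the alternative pathway, Nfkb2 and Relb, gave r = 0.86 at 17 months (permutation p = 2.4e-04, adjusted 0.0027; rho 0.90, p = 1.5e-04; r 0.74 without the farthest 2). Il1b and Tnf passed at 3 months (r = 0.83, permutation p = 8.4e-04, adjusted 0.00582; rho 0.69, p = 0.0157, adjusted 0.0744; r 0.66 without the farthest 2) and not at 17 months (r = 0.63, permutation p = 0.0264, adjusted 0.0792; rho 0.34, p = 0.278; r 0.29 without the farthest 2). At 3 months Nfkbia passed with none of Il1b (adjusted permutation p = 0.0578), Tnf (0.0792) and Nfkbiz (0.0798), and its r with Il1b went from 0.73 to -0.22 without HET-8304 and HOM-8285. Il1a and Il18 were in no pair that passed at 17 months.

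**Figure D3:**
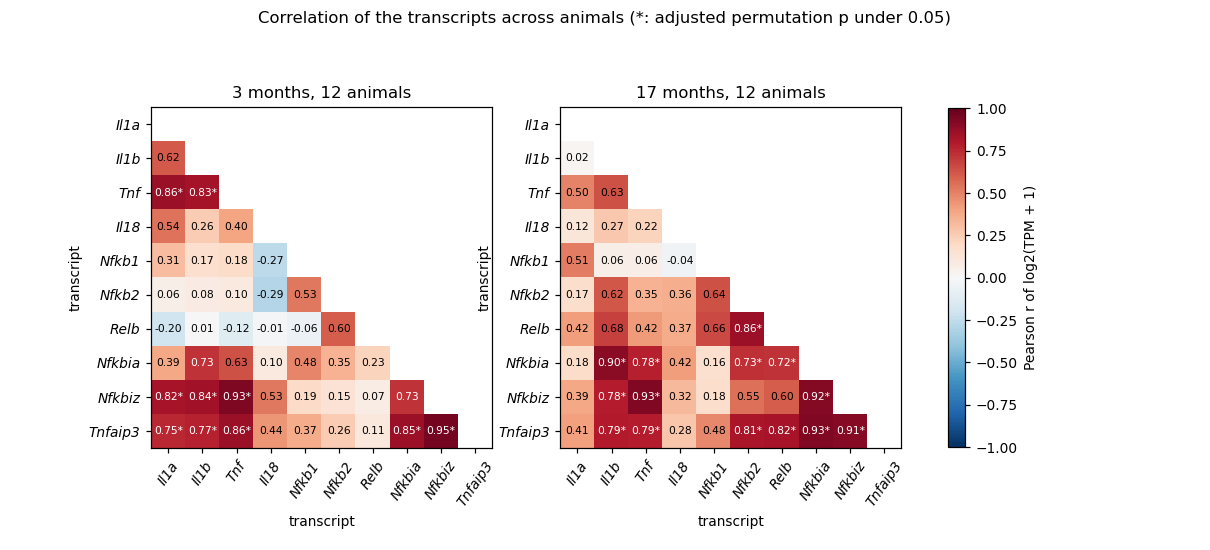
Pearson r of log2(TPM + 1) for each pair of the 10 transcripts over 12 animals at 3 months (left) and 17 months (right), with colour from -1 (blue) to 1 (red) and a star where the permutation p adjusted over 90 pairs is under 0.05. Starred pairs number 10 at 3 months and 14 at 17 months, and Tnf with Nfkbiz is at 0.93 in both.

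Some of the 10 transcripts went with a list of 20 genes, all in the table, that tissue dissociation is known to induce. It holds 18 immediate early genes (Fos, Jun, Egr1 and others), which cells switch on within minutes of a stimulus, and the heat shock genes Hspa1a and Hspa1b. The list summed to between 4970 and 7420 TPM in WT, 6670 and 9770 in HET and 7040 and 11200 in HOM at 17 months. At 3 months the sums were 11600 to 14300, 4650 to 18600 and 9180 to 13800 TPM, with HET-8304 lowest at 4650 and HOM-8285 lowest of its group at 9180. Hspa1a and Hspa1b alone made up 3830 to 6640 TPM of this in WT, 356 to 9650 in HET and 604 to 4190 in HOM at 3 months, and the other 18 genes 6400 to 9490, 4300 to 8910 and 8550 to 9570 TPM. By adjusted permutation p under 0.05 with the sum of all 20, 2 of the 10 transcripts passed for r at 3 months (Il1b and Nfkbia) and 0 for rho, and 6 for r and 3 for rho at 17 months. Tnf passed at neither age (adjusted p = 0.247 and 0.308). Nfkbia followed this sum at 3 months (r = 0.87, permutation p = 0.00477, adjusted 0.0382 over 80 relations of transcripts with marker sums; rho 0.60, p = 0.0438, adjusted 0.234) and r was 0.68 without the 2 farthest animals. At 17 months it did so with r = 0.87 (permutation p = 2.8e-04, adjusted 0.0116; rho 0.85, p = 7.2e-04), r = 0.67 without the 2 farthest, and r = 0.76 after genotype means were taken out. The 6 at 17 months were Nfkbia, Tnfaip3 (r = 0.84), Relb (0.81), Nfkb2 (0.80), Nfkbiz (0.75) and Il1b (0.73), of which Nfkbia, Tnfaip3 and Relb also passed for rho. For Il1b the value was 0.39 after genotype means were taken out. The list of the 18 immediate early genes alone was shortened after its values were seen and therefore not tested. With it Nfkbia gave r = 0.79 at 3 months (0.22 without the 2 farthest animals) and 0.89 at 17 months (0.72 without them). At 3 months the shorter list gave r = 0.94 for Tnfaip3, 0.92 for Nfkbiz, 0.79 for Tnf and 0.72 for both Il1a and Il1b. Without the 2 farthest animals these were 0.66, 0.69, 0.45, 0.57 and 0.37. Il18, Nfkb1, Relb and Nfkb2 lay between 0.17 and 0.49. For Tnf r was 0.62 at 17 months (0.39 without the 2 farthest). The part of these genes in the genotype differences was not tested.

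**Figure D4:**
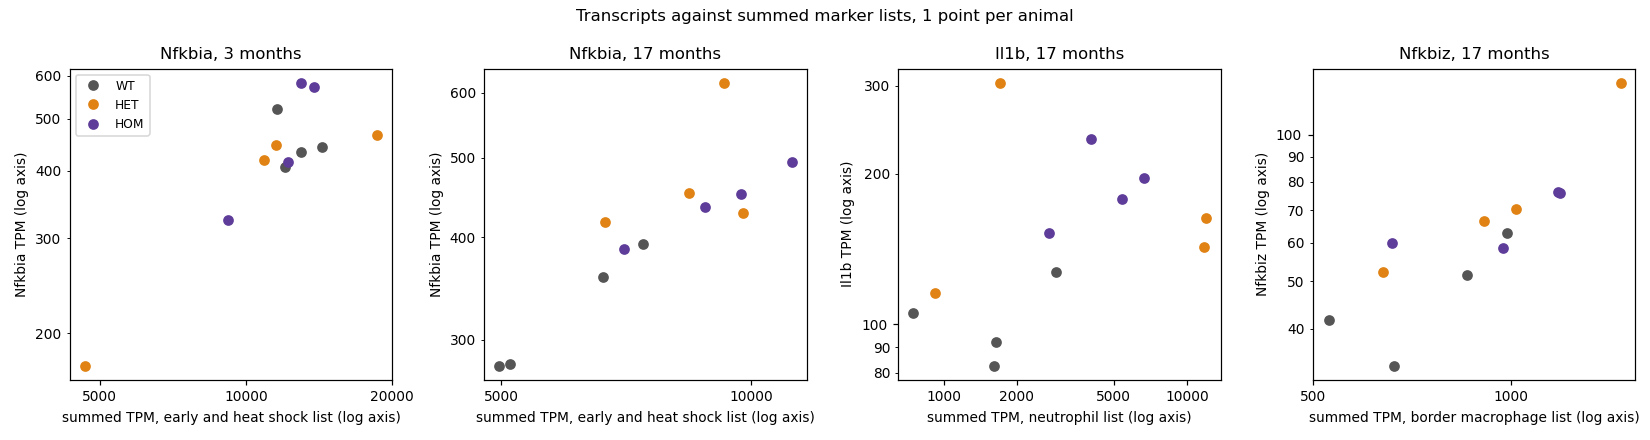
TPM of a transcript (vertical, log axis) against the summed TPM of a marker list (horizontal, log axis), 1 point per animal coloured by genotype. From left to right Nfkbia against the list of immediate early and heat shock genes at 3 and 17 months (r = 0.87 each), Il1b against neutrophil markers at 17 months, where HET-7795 has 304 TPM of Il1b at a neutrophil sum of 1700, and Nfkbiz against border macrophage markers at 17 months (r = 0.86).

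Other blood and border cells make these cytokines too, so their markers were set beside Il1b and Tnf. Neutrophil markers (15 of 16 in the table, Elane at 0 in some animals) summed to between 749 and 2900 TPM in WT, 923 and 12000 in HET and 2700 and 6630 in HOM at 17 months. Il1b did not pass with that sum (r = 0.40, permutation p = 0.192, adjusted 0.404, and rho 0.58, p = 0.0519). Without the 2 farthest animals, HET-7791 and HET-7796, r was 0.53, and with all animals it was 0.013 after genotype means were taken out. HET-7791 and HET-7796, with the highest neutrophil sums of 11700 and 12000, had 143 and 163 TPM of Il1b, and HET-7795 had 304 at a sum of 1700. The part of neutrophils in the Il1b values was not tested. Border-associated macrophage markers (14 of 14) ranged from 529 to 988 TPM in WT, 639 to 1470 in HET and 660 to 1190 in HOM, with HET-7795 at 1470. Nfkbiz followed that sum at 17 months (r = 0.86, permutation p = 2.9e-04, adjusted 0.0116; rho 0.87, p = 5e-04; r 0.75 without the 2 farthest), as did Tnf (r = 0.78, adjusted p = 0.0193; rho 0.80) and Tnfaip3 (r = 0.79, adjusted p = 0.023; rho 0.57, adjusted p = 0.249). Monocyte markers went with Il1b by r and not by rho (r = 0.73, permutation p = 0.00605, adjusted 0.0427; rho 0.71, adjusted p = 0.118), at 0.46 after genotype means were taken out. That list shares Nr4a1 with the immediate early genes, and without it r was 0.65, a value not tested, and 0.31 after genotype means were taken out.

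The wider pathway was described by 5 lists of 111 genes, from ligands to targets. Limma called 2 of them in the 6 genotype comparisons, both in HOM against WT at 17 months and both higher (2 of 101 tested, where 0.712% of all genes were called). Zfp36, which encodes tristetraprolin, a protein that speeds the decay of Tnf and other cytokine mRNAs, rose from 1460 ± 193 TPM in WT to 2389 ± 268 in HOM (log2 difference 0.71, SE 0.121, adjusted p = 0.0409). Its 4 WT animals had 1238, 1388, 1522 and 1691 TPM and its HOM animals 2032, 2358, 2505 and 2660. Nfkbid, a nuclear I-kappa-B protein like Nfkbiz, rose from 44.8 ± 4.93 to 84.0 ± 23.6 TPM (0.86, SE 0.173, adjusted p = 0.0468), with 40.7, 42.6, 44.0 and 51.9 TPM in WT and 63.2, 64.7, 98.4 and 109.8 in HOM. In neither gene did WT and HOM overlap, and 9.5% of all genes had HOM wholly above WT. The HET means lay between (1871 ± 225 and 59.6 ± 8.28 TPM), and the HET ranges overlapped those of both WT and HOM. Both calls were lost with a term for sex in the fit and without any one of WT-7782, WT-7783, WT-7943, HOM-7893, HOM-7899 or HOM-7901, where 0 of the list genes were called, and Nfkbid was also lost without WT-7785, HET-7791 or HET-7794. With no filter on the mean both calls were lost too, and that of Nfkbid with a pseudocount of 0.1. Without HET-7796, 5 of the list genes were called, Zfp36 and Nfkbid among them.

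By role, in HOM against WT at 17 months, 0 of 15 tested ligands and decoys and 0 of 28 receptors and adaptors were called, with median log2 differences of 0.022 and 0.14. Of the kinases, subunits and inhibitors 1 of 24 was called (median 0.18), of inflammasome and processing genes 1 of 15 (median 0.11) and of other NF-kB targets 0 of 19 (median 0.32). The median over all genes was 0.054 and that of the 10 members was 0.21. Among the other targets 17 of 19 were above 0 (60% of all genes were) and 7 had an unadjusted p under 0.05, all higher (against 13% of all genes), among them Cd83, Gadd45b, Ier3 and Ccrl2. In HET against WT at 17 months the same list had a median of 0.29 where all genes had -0.012, with 7 of 19 under that limit, all higher (against 2.75% of all genes), and 0 called. Cd83, a surface protein of activated antigen-presenting cells, was at 215 ± 42.9 TPM in WT, 348 ± 81.9 in HET and 281 ± 24.7 in HOM (adjusted p = 0.115 and 0.203). Of the receptors that tumour necrosis factor uses, Tnfrsf1a was at 197 ± 29.5, 197 ± 42.6 and 189 ± 23.2 TPM in WT, HET and HOM, and Tnfrsf1b was at 106 ± 18.2, 109 ± 24.1 and 122 ± 26.9 TPM. Rela, the classical partner of Nfkb1, was at 80.3 ± 7.30, 85.3 ± 6.72 and 91.6 ± 5.22 TPM (HOM 0.19, adjusted p = 0.278).

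At 3 months 0 of the list genes were called in any comparison. The receptors and adaptors had a median of -0.13 in HOM against WT and -0.15 in HET against WT, where all genes had -0.0989 and -0.0889. In HET against WT 11 of these 27 genes had an unadjusted p under 0.05, all lower (against 19.2% of all genes), among them Tnfrsf1b (179 ± 4.14 TPM in WT, 161 ± 2.79 in HET, 159 ± 6.76 in HOM; adjusted p = 0.0917 and 0.108), Myd88, Traf2 and Map3k14. Tgfb1, the ligand of highest level in its list, was at 372 ± 9.53 TPM in WT, 335 ± 8.72 in HET and 339 ± 11.2 in HOM (adjusted p = 0.0910 and 0.154), and Il16 at 86.7 ± 7.24, 72.9 ± 2.37 and 69.0 ± 3.60 TPM (adjusted p = 0.0779 and 0.0785). In the test of a differing effect between ages 1 list gene was called for HET against WT (0.691% of all genes were), Il33 (-1.72, SE 0.383, limma adjusted p = 0.0344), and 1 for HOM against HET (2.03% of all genes), Csf1 (-0.94, SE 0.226, adjusted p = 0.0387). Of 24 fits that each left out 1 animal, the Il33 call was lost in 10 (WT-8323, WT-8325, WT-8326, HET-8303, HET-8304, WT-7783, WT-7943, HET-7791, HET-7794 and HET-7795) and that of Csf1 in 12 (HET-8302, HET-8304, HOM-8282, HOM-8285, HOM-8286, HOM-8287, HET-7794, HET-7795, HET-7796, HOM-7835, HOM-7893 and HOM-7899). The Csf1 call was also lost with a term for sex, after centring and after quantile normalization, and that of Il33 in the RPKM tables. Neither call held with a filter at a mean of 5 TPM or without HET-8304 and HOM-8285. Both are named after their values were seen. Il33, near the limit of 1 TPM, was at 1.22 ± 0.354 TPM in WT and 2.34 ± 1.69 in HET at 3 months, with HET-8304 at 4.84, and at 4.37 ± 2.32 and 1.13 ± 0.175 TPM at 17 months. The 13 astrocyte markers summed to between 239 and 371 TPM in WT and 270 and 603 in HET at 3 months, and to between 286 and 602 and between 236 and 295 TPM at 17 months, and their part in the Il33 difference was not tested. Csf1, the growth factor of microglia themselves, was at 59.8 ± 8.34 TPM in HET and 37.8 ± 7.71 in HOM at 17 months and at 17.1 ± 2.70 and 20.9 ± 2.31 at 3 months. In WT it was at 39.0 ± 7.75 TPM at 17 months and 21.3 ± 3.84 at 3 months, so at 17 months HOM was near WT and HET lay above both.

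**Figure D5:**
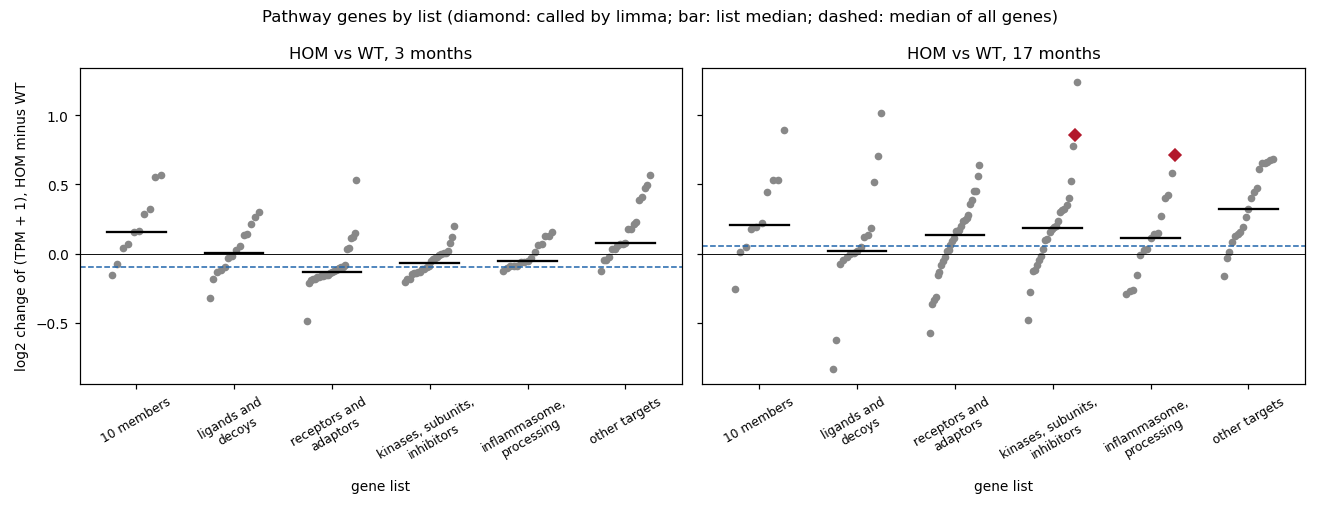
Log2 difference of (TPM + 1), HOM minus WT, for the 10 transcripts and the genes of 5 pathway lists at 3 months (left) and 17 months (right), 1 point per gene. The black bar is the list median, the dashed line the median of all genes tested, and a red diamond a gene called by limma. The 2 diamonds are Nfkbid (0.86) and Zfp36 (0.71) at 17 months.

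The RPKM tables, another measure of the same libraries scaled to kilobases of transcript and to the number of alignments, gave the same sign in 58 of the 60 combinations of transcript and comparison. The largest gap in a log2 difference was 0.0913. The signs differed for Il18 in HET against WT and Nfkb2 in HOM against HET at 17 months. In RPKM, Il1b in HOM against WT at 17 months was called (0.91, limma adjusted p = 0.0439, where 8.34% of all genes were called), and all HOM animals lay above all WT animals for Il1b, Nfkb2 and Tnfaip3 (15% of genes). Ranges in RPKM were also apart upward for Nfkb2 in HET against WT at 17 months (1.92% of genes), for Il18 in HOM against WT at 3 months (3.6%) and for Relb in HOM against HET at 3 months (1.33%). For Nfkb2, Tnfaip3 and Il18 the TPM ranges overlapped in these comparisons.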

How the data were processed

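Bulk RNA sequencing of microglia was analysed in 24 mice (6 groups of 4). The build was mm10 and the tools were Salmon 0.8.2, TopHat2 2.1.1, DESeq2 and Partek 7.17.0918, per the submitters' processing notes. Which of them made which table is not given in the sources used here. The authors deposited TPM summed to genes, 1 table for each age with 20636 genes. The TPM columns add up to between 78.9% and 90.7% of the total the unit implies. The authors also deposited RPKM tables (18721 genes at 3 months, 19210 at 17 months), which served as a check. Columns carry animal numbers. The RPKM headers pair each with a genotype, and 4 animals headed hemi were taken as HET.

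The targeted transcript was tested by exact permutation of its TPM. Tests over all genes used limma 3.58.1 (R 4.3.3) with a trend on log2(TPM + 1). They took, at each age, genes whose mean over its 12 animals reached 1 TPM, in 1 model for each age with a mean per genotype. They were two-sided, with Benjamini-Hochberg adjustment across every gene tested and calls under 0.05. Fold changes on this scale understate those of low genes. Effects were compared between ages over 24 animals and 11436 genes. Correlations used permutations of animals (100000, scipy 1.17.1). Gene positions are from GENCODE on GRCm38. No library was a copy of another (over pairs of animals, the SD of log2 differences was at least 0.226 at 3 months and 0.263 at 17 months).

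The members and lists were chosen with earlier results of these data known. All 10 members are named, together with list genes called in a genotype comparison and the 2 of highest mean TPM in each list. On simulated data at 17 months (11792 genes, HOM against WT), the test recovered 79% of log2 changes of 1 and 96% of those of 2, with 3.31% false among its calls, and 93% and 99% at 3 months (11587 genes, 5.88% false). The changed genes were drawn at random from all genes, and several of the 10 transcripts varied more than most genes. Their largest difference from WT was 0.90, so these shares do not give the chance of a call for the 10. Alternatives were other pseudocounts, filters, scalings and weights, a term for sex, the RPKM tables, fewer groups in the fit and leaving out animals. Leaving out HET-8304 and HOM-8285 together, and shortening the immediate early and monocyte lists, were chosen after seeing the data.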

Additional observations from a re-analysis of the deposited data

Results flagged for a closer look

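Each group of 4 animals was checked for an animal whose distance to its nearest neighbour, as a share of the group's range, exceeded Dixon's limit for 4 values. Of 60 groups 4 held such an animal, where chance gives about 1 in 20, and all were lowest animals at 3 months. HET-8304 had 25.2 TPM of Il1b where the other HET animals had from 109.6 to 116 TPM, and 174 TPM of Nfkbia where they had from 419.6 to 465 TPM. HOM-8285 had 117 TPM of Il1a where the other HOM animals had from 143 to 147 TPM. WT-8323 had 33.8 TPM of Nfkb2 where the other WT animals had from 34.9 to 35.1 TPM, a small gap in a narrow group. HET-8304 and HOM-8285 also had the lowest sums of immediate early and heat shock transcripts in their groups (4650 and 9180 TPM).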

How the results depend on the processing

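Under the main settings 0 of the 10 transcripts were called by limma in each comparison, and no called result reversed. Weighting libraries by their fit gave the most calls, and in HOM against WT at 17 months it raised the count over all genes too, as given below. For the other comparisons the share of all genes called with weights is not given here. The counts are therefore not a result about the 10 transcripts. With those weights, at 3 months 3 were called in HOM against WT (Tnf, Nfkbiz, Nfkb1), 5 in HET against WT (Tnf, Il18, Nfkb1, Nfkb2, Relb) and 2 in HOM against HET (Nfkb2, Relb). At 17 months they were 3 (Il1b, Nfkbia, Tnfaip3), 5 (Il1b, Tnf, Nfkbia, Nfkbiz, Tnfaip3) and 1 (Tnf). For the difference between ages they were 4 for HET against WT (Nfkbia, Nfkb2, Relb, Tnfaip3) and 1 for HOM against HET (Relb). In HOM against WT at 17 months, 1 (Il1b) was called in the RPKM tables (limma adjusted p = 0.0439, where 8.34% of all genes were called). With only the 2 groups in the fit 1 (Il1b) was called too (limma adjusted p = 0.0346). The share of all genes called in that fit is not given here. With a term for sex 1 (Relb) was called for the difference between ages of HET against WT, where the share of all genes called is likewise not given. Leaving out 1 animal gave from 0 to 1 called in HET against WT and HOM against HET at 3 months, in HOM against WT and HET against WT at 17 months and in the difference between ages of HET against WT, and 0 in the other comparisons. The cause of these changes was not tested.

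Counts over all genes moved far more. The 84 genes called in HOM against WT at 17 months ranged from 1 (without WT-7783) to 368 (without HET-7796), with 5 under a term for sex and 1858 under weights. In HET against WT at 3 months the count was 467 without HET-8309 and 3 without WT-8322, and in HET against WT at 17 months 28 went from 0 (without WT-7783) to 239 (without WT-7785). Of the calls in HOM against WT at 17 months 65.5% were higher, 33.5% of 609 after centring on medians and 43.9% of 633 after quantile normalization, and in HOM against HET 90.9%, 61.9% of 247 and 67.2% of 195. In HOM against WT at 3 months 28.6% of 7 were higher, 84.6% of 26 after centring. No paired analysis was possible because the table columns carry animal numbers and not the replicate numbers of the labels, so the fit with a replicate block was not run. Depth of single genes is unknown, since TPM keeps no counts.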

Other observations

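Genes outside the set whose levels were most alike to those of Il1b, Tnf, Nfkbia and Nfkbiz were found by the smaller of the Pearson r at 3 and at 17 months, over 12 animals each and 11436 genes. For Il1b they were Ccrl2 (smaller r 0.869), an atypical chemokine receptor, Csrnp1 (0.858), Osm (0.852), a cytokine of the interleukin-6 family, the immediate early gene Nr4a1 (0.843) and Tnfsf9 (0.825). For Tnf they were Gem (0.867), Rasgef1b (0.847), Gadd45b (0.831), Cd83 (0.826) and Adamts1 (0.822). For Nfkbia they were Ppp1r15a (0.9), a phosphatase subunit of the integrated stress response, Junb (0.867), Tgif1 (0.86), the clock gene Per1 (0.856) and Osm (0.803). For Nfkbiz they were Ccrl2 (0.91), Fosb (0.904), Tnfsf9 (0.903), Fos (0.897) and Osm (0.894). Osm was among the 5 most alike genes of Il1b, Nfkbia and Nfkbiz, and Ccrl2 and Tnfsf9 among those of Il1b and Nfkbiz. These are descriptions over animals that share dissection, sort and library preparation.

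At 3 months the neutrophil sum ran against Nfkb1 (r = -0.84, permutation p = 8.5e-04, adjusted 0.017 over 80 relations; rho -0.83, p = 0.00167, adjusted 0.0267; r -0.86 without the 2 farthest animals and -0.70 after genotype means were taken out). The neutrophil sums were 1210 to 2920 TPM in WT, 2010 to 5590 in HET and 2240 to 5260 in HOM. The monocyte list, which shares Chil3 with the neutrophil list, gave r = -0.57 with Nfkb1 (adjusted permutation p = 0.193). Without Nr4a1, a shortening that was not tested, r was -0.82 (-0.90 without the 2 farthest animals and -0.67 after genotype means were taken out). The part of either cell type in the Nfkb1 values was not tested.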
